A study of Mus musculus with 12 samples.

Results

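The expression of 10 genes of inhibitory and CD28 family receptors was followed in mouse CD4+ T cells: Tigit, Havcr2 (TIM-3), Lag3, Pdcd1 (PD-1), Ctla4, Icos, Cd28, Btla, Cd160 and Cd244 (2B4). They were chosen by name as cell surface receptors that restrain or costimulate T cells, and all 10 were found among the 23700 loci listed for each RNA library. RNA was sequenced in 10 libraries, and the transcription factor Bach2 was mapped by chromatin immunoprecipitation (ChIP) in 1 library with 1 input lysate. The study asked how Bach2 shapes the expression programme of induced regulatory T (iTreg) cells. All cells came from spleen and lymph nodes of C57BL/6J mice and were sorted as naive CD4+CD44-CD25-CD62L+ cells. Neither the age of the mice nor the deleted part of Bach2 is stated in the labels.

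The iTreg Bach2KO group (3 libraries) and the iTreg WT group (3 libraries) were both grown for 3 days on plate-bound antibodies to CD3 and CD28, at 10 μg/ml of each, with IL-2 at 100 IU/ml and human TGF-β1 at 5 ng/ml. The Th1 library came from wild-type cells given IL-12 at 20 ng/ml and an antibody that neutralizes IL-4, the Th2 library from cells given IL-4 at 20 ng/ml and an antibody to IFN-γ, and the Th17 library from cells given IL-6 at 20 ng/ml, TGF-β1 at 2 ng/ml and both antibodies (10 μg/ml each). These 3 cultures had the same plate-bound stimulus and length. The naive library held freshly sorted wild-type cells without culture. Bach2 ChIP was done on WT iTreg cells. There was thus 1 library each for Th1, Th2, Th17, naive and ChIP. The labels do not say whether replicates were separate animals or cultures, so p-values measure only the spread between these libraries. All cultured cells were stimulated through CD28 itself.

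T cells need a signal through the antigen receptor and a second one through CD28, which binds CD80 and CD86 on antigen-presenting cells. CTLA-4 competes for the same ligands and, like PD-1, BTLA, LAG-3, TIM-3 and TIGIT, dampens activation. Regulatory T cells are known for high CTLA-4 and ICOS, and many also carry TIGIT, while TIM-3 and LAG-3 are known from activated, effector and chronically stimulated T cells. Bach2 is a repressor with a basic leucine zipper that binds DNA elements overlapping those of AP-1.

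Bach2 peaks lay within 50 kb of every one of the 10 loci, and the DNA around the summits that the results turn on is shown first. Each line gives 121 bases centred on the summit of 1 peak, on the plus strand of mm9, read from the reference genome of that build. These peaks were chosen after their values were seen: those over the starts of Havcr2, Lag3, Cd28 and Btla, the strongest at Tigit and Havcr2, and the closest one upstream of Icos. Capitals mark TGANTCA, a pattern that takes in the AP-1 element (TGACTCA or TGAGTCA), which is also the core of the Maf recognition element. It is wider than that element, since it allows any middle base, and reads the same on both strands as a pattern.
Tigit, strongest peak, upstream, chr16:43696027-43696147: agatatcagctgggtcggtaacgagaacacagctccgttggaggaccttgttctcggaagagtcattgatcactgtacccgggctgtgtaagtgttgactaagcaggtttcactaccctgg
Havcr2, peak over the start, chr11:46268160-46268280: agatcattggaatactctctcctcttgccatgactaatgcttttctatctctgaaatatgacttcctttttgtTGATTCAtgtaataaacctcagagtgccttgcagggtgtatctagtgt
Havcr2, strongest peak, intronic, chr11:46287853-46287973: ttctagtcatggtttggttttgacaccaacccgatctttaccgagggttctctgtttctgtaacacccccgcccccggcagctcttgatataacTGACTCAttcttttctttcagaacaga
Lag3, peak over the start, chr6:124861733-124861853: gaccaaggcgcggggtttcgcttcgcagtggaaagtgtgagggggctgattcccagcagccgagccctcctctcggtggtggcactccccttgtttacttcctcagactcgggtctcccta
Icos, closest upstream peak, chr1:61032092-61032212: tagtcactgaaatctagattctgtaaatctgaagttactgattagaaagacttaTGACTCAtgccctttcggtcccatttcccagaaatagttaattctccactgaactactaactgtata
Cd28, peak over the start, chr1:60803111-60803231: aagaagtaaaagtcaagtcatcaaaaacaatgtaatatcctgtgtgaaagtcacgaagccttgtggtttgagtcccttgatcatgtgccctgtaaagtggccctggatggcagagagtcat
Btla, peak over the start, chr16:45223828-45223948: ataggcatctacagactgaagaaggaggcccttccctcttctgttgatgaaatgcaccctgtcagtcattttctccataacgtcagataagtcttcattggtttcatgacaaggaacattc

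The Icos peak held TGACTCA 3 bases from its summit, and the start peak of Havcr2 held TGATTCA 16 bases from it. TGATTCA fits the wider pattern but is not the AP-1 element itself. TGACTCA lay 37 bases from the summit in the intron of Havcr2. The windows at the starts of Lag3, Cd28 and Btla and at the upstream Tigit peak held no such letters. A match is a description of the letters and not a measured site.

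Values are fragments per kilobase of transcript scaled to library size (FPKM), so levels of different genes can be set beside each other. Genes were tested with limma on log2(FPKM + 0.5) among the 11473 loci that averaged 0.5 FPKM or more in the 6 iTreg libraries, and were called at an adjusted p under 0.05 (Benjamini-Hochberg). The implied depth was 20.1 to 24.0 M reads in Bach2KO iTreg, 18.2 to 19.1 M in WT iTreg and 12.4 to 18.5 M in the single libraries. Bach2 itself averaged 3.81 ± 0.378 FPKM in Bach2KO and 17.6 ± 0.351 FPKM in WT iTreg (SD, n = 3 each), a log2 difference of -2.08 (SE 0.0743, adjusted p = 4.4e-06). Foxp3, the defining factor of regulatory T cells, was at 7.68, 19.7 and 5.81 FPKM in the Bach2KO libraries and at 69.6, 66.7 and 81.1 FPKM in the WT iTreg libraries. Bach2KO replicate 2 therefore had the highest Foxp3 of its group. Of the 4 Treg markers listed, 3 were tested. Foxp3 (log2 difference -2.84) and Ikzf4 (-1.47) were called lower, and Il2ra was called higher (1.98). Il2ra averaged 312 FPKM in Bach2KO and 78.6 FPKM in WT iTreg, and Ikzf2 was too low to be tested. Over all tested loci 41.0% were called higher and 33.6% lower. The 6 CD4 T cell markers listed summed to 1488 to 1567 FPKM in Bach2KO and 1662 to 1685 FPKM in WT iTreg. The 4 mast cell markers listed summed to 0.376 to 0.453 FPKM in Bach2KO and 0.373 to 0.728 FPKM in WT iTreg. Of these, Fcer1a and Mcpt4 were listed at 0 in all 6 libraries. Of the 7 myeloid and dendritic markers listed, 5 were under 0.5 FPKM in all 6. Zbtb46 was called higher (3.00 FPKM in Bach2KO, 0.235 FPKM in WT iTreg). Itgam was called lower (0.143 FPKM in Bach2KO, 3.70 FPKM in WT iTreg). Each reached the minimum of 0.5 FPKM through 1 genotype alone, which fixed its direction. The part of such cells in the receptor differences was not tested. In bulk RNA, fewer cells that express a receptor and less RNA per cell cannot be told apart.

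Loss of Bach2 came with higher RNA for 3 inhibitory receptors, Tigit, Havcr2 and Lag3, and for the costimulator Icos, and with lower RNA for the inhibitory receptor Btla. Pdcd1, Ctla4, Cd28 and Cd160 did not pass the test, and Cd244 was too low to be tested. Of the 9 receptors tested, 4 were called higher and 1 lower. Havcr2 passed the filter on low values through its Bach2KO libraries alone, so its direction among these calls was fixed by that filter. Among all 11473 loci, 74.7% were called, 41.0% higher and 33.6% lower, so a call by itself was common. Quantile normalization moved the split over all loci from 4709 higher and 3857 lower to 3715 higher and 4890 lower. The median log2 difference was 0.34 over the 9 receptors and 0.07 over all tested loci. The Bach2KO and WT values did not overlap in 5 of the 9, the ones called, and in 79.4% of all tested loci.

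**Figure D1:**
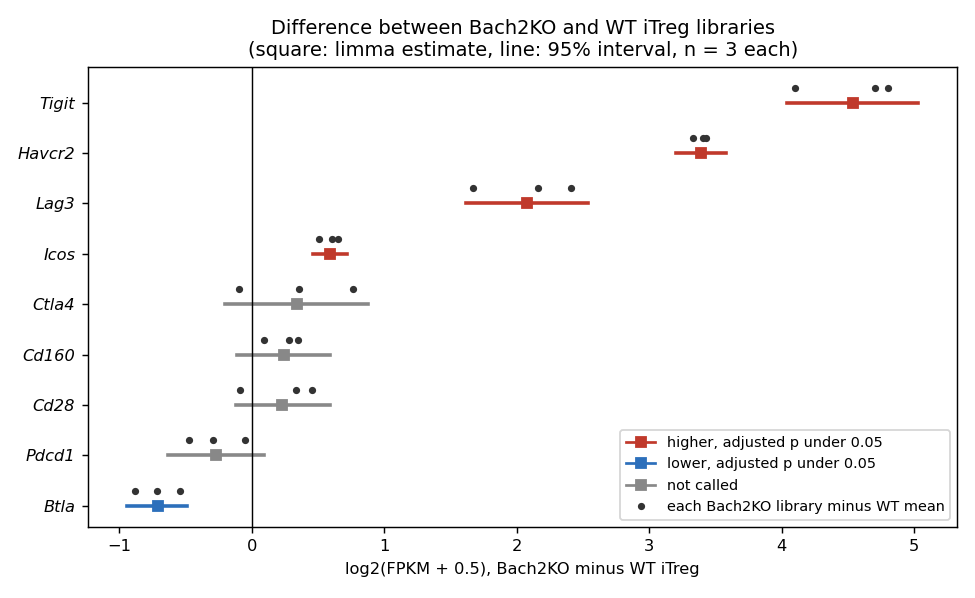
Difference in log2(FPKM + 0.5) between 3 Bach2KO and 3 WT iTreg libraries for the 9 receptor genes that were tested. Squares are limma estimates, lines their 95% intervals, and dots each Bach2KO library minus the WT mean. Tigit, Havcr2, Lag3 and Icos lie right of 0, Btla lies left of 0, and the intervals of Ctla4, Cd160, Cd28 and Pdcd1 include 0.

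Tigit encodes an immunoglobulin-family receptor for the nectin-like molecule CD155 (Pvr) and lies on the minus strand at chr16:43648974-43664297 (mm9). It was at 29.0, 19.0 and 31.2 FPKM in the Bach2KO libraries and at 0.792, 0.595 and 0.528 FPKM in the WT iTreg libraries. Every Bach2KO library was far above every WT library. The means were 26.4 ± 6.52 FPKM in Bach2KO and 0.638 ± 0.137 FPKM in WT iTreg (SD, n = 3 each), a ratio of 41.3. On the log2 scale the difference was 4.54 (SE 0.202, 95% interval 4.04 to 5.03, adjusted p = 9.1e-06), and 0.427% of the tested loci differed by more. Among the 9 tested receptors Tigit and Havcr2 differed most, and which of them came first depended on the pseudocount, at 5.15 for Tigit and 5.47 for Havcr2 with 0.1 FPKM added.

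In the other cultures Tigit was at 17.3 FPKM in Th1, 29.3 FPKM in Th2 and 14.9 FPKM in Th17, and at 0.271 FPKM in the naive library. WT iTreg cells thus stood apart from the 3 helper cultures, at a log2 difference of -3.98 against Th1, -4.72 against Th2 and -3.77 against Th17. The Bach2KO range of 19.0 to 31.2 FPKM overlapped the deposited confidence bounds of Th2 (26.7 to 32.0 FPKM) and of Th1 (15.2 to 19.4 FPKM) but not those of Th17 (12.9 to 17.0 FPKM). These bounds cover counting error only. About 13 to 19 reads lay behind each WT iTreg value and 471 to 807 behind each Bach2KO value.

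Havcr2 encodes TIM-3, a receptor for galectin-9 among other ligands, on the plus strand at chr11:46268433-46294756. Its values were 5.03, 4.92 and 4.66 FPKM in Bach2KO libraries and 0.0251, 0 and 0.0122 FPKM in WT iTreg libraries. The Bach2KO libraries lay close together and the WT libraries near or at 0, with at most 2 implied reads. The means were 4.87 ± 0.187 FPKM in Bach2KO and 0.0124 ± 0.0125 FPKM in WT iTreg. The log2 difference of 3.39 (SE 0.0789, 95% interval 3.20 to 3.58, adjusted p = 1.3e-06) depends on the added 0.5 FPKM and was 5.47 with 0.1 FPKM added instead, so no fold is given. Its direction was fixed by the filter on low values, which Havcr2 passed through Bach2KO alone. Fitted with limma without that filter, the difference was again 3.39 (adjusted p = 2.3e-05).

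No other culture had Havcr2 RNA at the level of the Bach2KO cells. It was at 0.0561 FPKM in Th1 and 0.0737 FPKM in Th2, and was listed at 0 in Th17 and in the naive library. The Bach2KO iTreg cells were higher by 3.27 on the log2 scale than Th1, by 3.23 than Th2 and by 3.42 than Th17. Havcr2 differs in this from Tigit, which all 3 helper cultures expressed at 14.9 FPKM or more.

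Lag3, at chr6:124854377-124861723 on the minus strand, encodes a CD4-related receptor for MHC class II. It was at 10.8, 7.54 and 13.0 FPKM in the Bach2KO libraries and at 1.95, 1.99 and 2.16 FPKM in the WT iTreg libraries. The groups did not overlap, and the WT libraries were nearly level. The means of 10.5 ± 2.73 FPKM in Bach2KO and 2.03 ± 0.111 FPKM in WT iTreg gave a ratio of 5.14 and a log2 difference of 2.08 (SE 0.187, 95% interval 1.62 to 2.54, adjusted p = 0.00013).

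Both iTreg groups were far below the helper cultures for Lag3, which reached 186 FPKM in Th1, 162 FPKM in Th2 and 151 FPKM in Th17. The naive library had 0.113 FPKM. For Bach2KO iTreg cells the log2 differences were -4.12 against Th1, -3.93 against Th2 and -3.82 against Th17. They were -6.20 against Th1, -6.01 against Th2 and -5.90 against Th17 for WT iTreg cells. In the order Th1, Th2, Th17, Bach2KO iTreg, WT iTreg and naive, neighbours did not overlap, but for the single libraries this rests on bounds of counting error and shows no order among the helper cultures beyond it.

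Icos encodes the inducible costimulator, a CD28 relative with its own ligand ICOSL, on the plus strand at chr1:61034758-61057164. It was at 68.6, 73.4 and 75.9 FPKM in Bach2KO and at 48.2, 49.7 and 46.4 FPKM in WT iTreg libraries. The replicates of each genotype lay close together, and the genotypes did not overlap. The means of 72.6 ± 3.70 FPKM in Bach2KO and 48.1 ± 1.68 FPKM in WT iTreg had a ratio of 1.51 (log2 difference 0.59, SE 0.052, adjusted p = 0.00012), and 43.2% of tested loci differed by more. In FPKM, Bach2KO iTreg cells also had the highest Icos of the 6 groups, above Th1 at 58.2, Th2 at 52.0 and Th17 at 54.5 FPKM. All loci summed to 545183 to 553892 FPKM in Bach2KO, 432450 to 437849 in WT iTreg and 430495 to 472069 in the helper libraries. The part of these sums in the order of groups was not tested. Fitted with limma after quantile normalization, the difference from WT iTreg was 0.354 (adjusted p = 0.0014). The naive library had 10.6 FPKM.

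Btla encodes an inhibitory receptor that binds the herpesvirus entry mediator HVEM, and lies on the plus strand at chr16:45224450-45253008. Its values were 13.5, 15.3 and 11.9 FPKM in Bach2KO libraries and 22.1, 22.0 and 23.2 FPKM in WT iTreg libraries. Every Bach2KO library was below every WT library. The means were 13.5 ± 1.67 FPKM in Bach2KO and 22.5 ± 0.690 FPKM in WT iTreg, a log2 difference of -0.71 (SE 0.0902, 95% interval -0.94 to -0.49, adjusted p = 0.00057).

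Bach2KO iTreg cells had the lowest Btla of all groups. It was at 103 FPKM in Th1, 67.4 FPKM in Th2, 34.7 FPKM in Th17 and 32.9 FPKM in the naive library, and the bounds of the Th17 and naive values overlapped. B cells also express Btla, and 7 B cell markers summed to 13.2 to 19.9 FPKM in Bach2KO and 11.4 to 63.0 FPKM in WT iTreg. Their part in the Btla difference was not tested.

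Ctla4, whose product takes CD80 and CD86 away from CD28, was the most abundant of the 10 RNAs in both iTreg genotypes and lies on the plus strand at chr1:60965869-60972674. It was at 167, 122 and 222 FPKM in Bach2KO and at 125, 118 and 151 FPKM in WT iTreg libraries. The groups overlapped, and Bach2KO replicate 2 was the low one. The log2 difference of 0.34 (SE 0.222, 95% interval -0.20 to 0.88, adjusted p = 0.21) did not pass the test. Ctla4 was at 192 FPKM in Th1, 233 FPKM in Th2 and 306 FPKM in Th17, and at 10.2 FPKM in the naive library.

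Pdcd1, on the minus strand at chr1:95934882-95949130, encodes PD-1, the receptor for PD-L1 and PD-L2. It was at 15.2, 18.0 and 13.3 FPKM in Bach2KO and at 18.3, 16.2 and 22.0 FPKM in WT iTreg libraries, so the groups overlapped. The log2 difference was -0.27 (SE 0.147, 95% interval -0.63 to 0.09, adjusted p = 0.14). Th17 had the highest level at 44.6 FPKM, followed by Th1 at 23.5 FPKM. Th2 had 9.38 FPKM and the naive library 0.997 FPKM.

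Cd28, on the plus strand at chr1:60803232-60830203, encodes the main costimulatory receptor and had the highest naive level of the 10, at 82.6 FPKM, ahead of Btla. Its values were 94.3, 70.1 and 103 FPKM in Bach2KO and 74.7, 79.3 and 70.4 FPKM in WT iTreg libraries. Again the groups overlapped through Bach2KO replicate 2 (log2 difference 0.23, SE 0.144, 95% interval -0.12 to 0.59, adjusted p = 0.19). Cd28 was at 176 FPKM in Th1, 80.6 FPKM in Th2 and 252 FPKM in Th17.

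Cd160, on the minus strand at chr3:96602686-96633274, encodes a second receptor for HVEM that is best known from NK and CD8 T cells. It was low in all libraries, between 0.818 and 1.07 FPKM in Bach2KO, between 0.573 and 0.935 FPKM in WT iTreg and between 0.513 and 1.25 FPKM in the 4 single libraries. The log2 difference between genotypes was 0.24 (SE 0.142, 95% interval -0.11 to 0.59, adjusted p = 0.17). Cd244 encodes 2B4, a receptor for CD48, on the plus strand at chr1:173489324-173515447. It did not exceed 0.116 FPKM in any library and was listed at 0 in the naive one. The 7 listed NK and CD8 T cell markers summed to 13.1 to 14.6 FPKM in Bach2KO and 10.6 to 12.8 FPKM in WT iTreg, with Klrb1c, Klrk1 and Ncr1 under 0.5 FPKM in all 6. Of the 4 tested, Cd8a (log2 difference 2.20) and Cd8b1 (0.84) were called higher and Prf1 (-1.81) and Klrd1 (-1.20) lower. Cd8a (2.23 FPKM in Bach2KO, 0.0925 FPKM in WT iTreg) passed the filter on low values through Bach2KO alone. Prf1 (0.355 FPKM in Bach2KO, 2.47 FPKM in WT iTreg) passed it through WT iTreg alone. The directions of Cd8a and Prf1 were thus fixed by that filter. The part of these cells in the higher Tigit, Havcr2 and Lag3 was not tested.

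Bach2KO replicate 2 was the lowest of its group for Tigit, Lag3, Ctla4 and Cd28 and the highest for Pdcd1 and Btla. It was also the Bach2KO library with the most Foxp3, and the part of that in these values was not tested. Without it, Ctla4 (log2 difference 0.56, adjusted p = 0.024) and Cd28 (0.39, adjusted p = 0.0032) were called higher and Pdcd1 (-0.39, adjusted p = 0.048) lower. The 5 calls made with all libraries held without it.

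**Figure D2:**
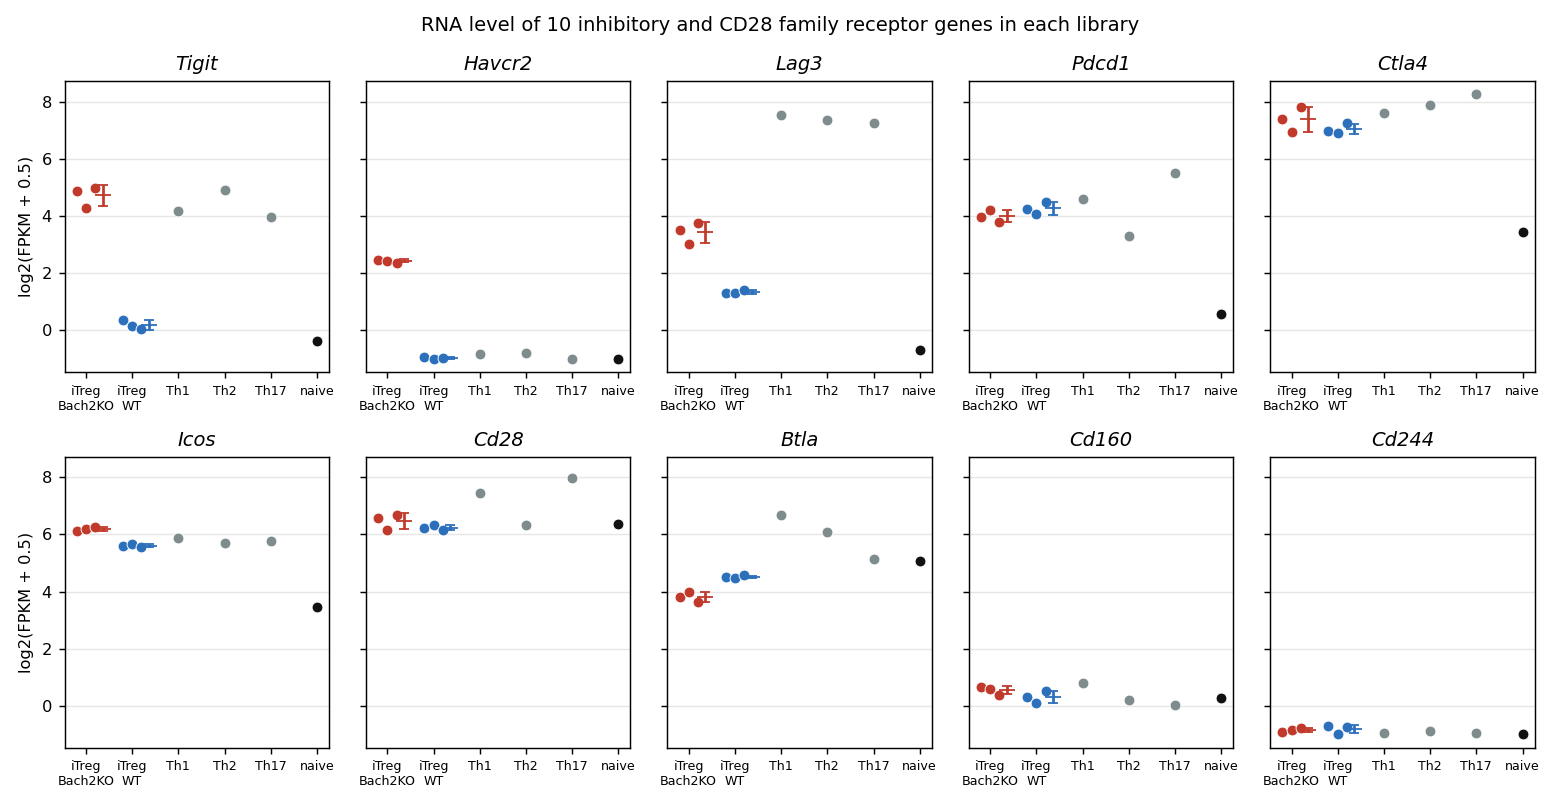
RNA level of the 10 receptor genes on the log2(FPKM + 0.5) scale, 1 point per library, with mean and SD of the log2 values beside the 3 Bach2KO and the 3 WT iTreg libraries. Tigit in Bach2KO overlaps the counting bounds of Th1 and Th2 and lies above Th17, Havcr2 is high in Bach2KO alone among these libraries, and Lag3 in Bach2KO lies between WT iTreg and the helper cultures.

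The same genes were set against the freshly sorted naive cells. With 1 library in most groups there is no test, and a gene was counted where log2(FPKM + 0.5) differed by at least 2-fold and 1 of the 2 values reached 0.5 FPKM. Every comparison here shares the naive library, whose FPKM summed to 303348. The sums were 430495 to 472069 in the helper libraries and 432450 to 437849 in WT iTreg. In Th1, 7 of the 8 receptors that reached the minimum were at least 2-fold higher than in naive cells, against 29.5% of all loci, and Cd160 was the exception. In Th2 there were 6 of 8 (27.9% of all loci), with Cd28 (log2 difference -0.04) and Cd160 (-0.08) not among them. In Th17 there were 6 of 8 (25.0% of all loci), with Btla (0.07) and Cd160 (-0.25) not among them. After median-ratio scaling of the libraries the counts were 6 in Th1, 5 in Th2 and 6 in Th17. The counted differences closest to the 2-fold limit were those of Btla in Th2 (1.02) and Cd28 in Th1 (1.09).

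WT iTreg cells had 4 of 8 at least 2-fold higher than naive cells, against 17.5% of all loci: Ctla4, Icos, Pdcd1 and Lag3. Their log2 differences were 3.61 for Ctla4, 2.13 for Icos, 3.68 for Pdcd1 and 2.04 for Lag3. Tigit reached 0.56 and Cd28 -0.14, while Btla was lower at -0.54. No receptor was 2-fold lower than in naive cells in these groups, where 9.83% of all loci were lower in Th1, 11.8% in Th2, 7.54% in Th17 and 3.79% in WT iTreg.

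Set against each helper culture by the same measure, WT iTreg cells had no receptor 2-fold higher, where 13.6% of all loci were higher than in Th1, 16.4% than in Th2 and 9.93% than in Th17. Pdcd1 came closest, at a log2 difference of 0.96 from Th2. Without the added 0.5 FPKM, the ratio of its WT iTreg mean to Th2 was 2.01. They had 4 of 8 at least 2-fold lower than Th1 (Tigit, Lag3, Cd28 and Btla, against 19.0% of all loci). Against Th2 there were 3 of 8 lower (Tigit, Lag3 and Btla, 18.4% of all loci), and against Th17 5 of 8 (Tigit, Lag3, Pdcd1, Ctla4 and Cd28, 13.7% of all loci). Tigit and Lag3 were on all 3 lists.

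Among the 9 receptors counted for Bach2KO iTreg cells, Havcr2 was at least 2-fold higher than in each helper culture, where 10.2% of all loci were higher than in Th1, 11.8% than in Th2 and 8.67% than in Th17. Havcr2 reached the minimum of 0.5 FPKM through Bach2KO alone, so its direction was fixed by that minimum. Lower by at least 2-fold were Lag3, Btla and Cd28 against Th1 (9.57% of all loci). Cd28 stood at the limit there, with a log2 difference of -1.0 and a ratio of Th1 to the Bach2KO mean of 1.98. Against Th2 Lag3 and Btla were lower (8.83%), and against Th17 Lag3, Btla, Cd28 and Pdcd1 (7.21%). Tigit was on none of these lists, at a log2 difference of 0.56 from Th1, -0.18 from Th2 and 0.77 from Th17.

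**Figure D3:**
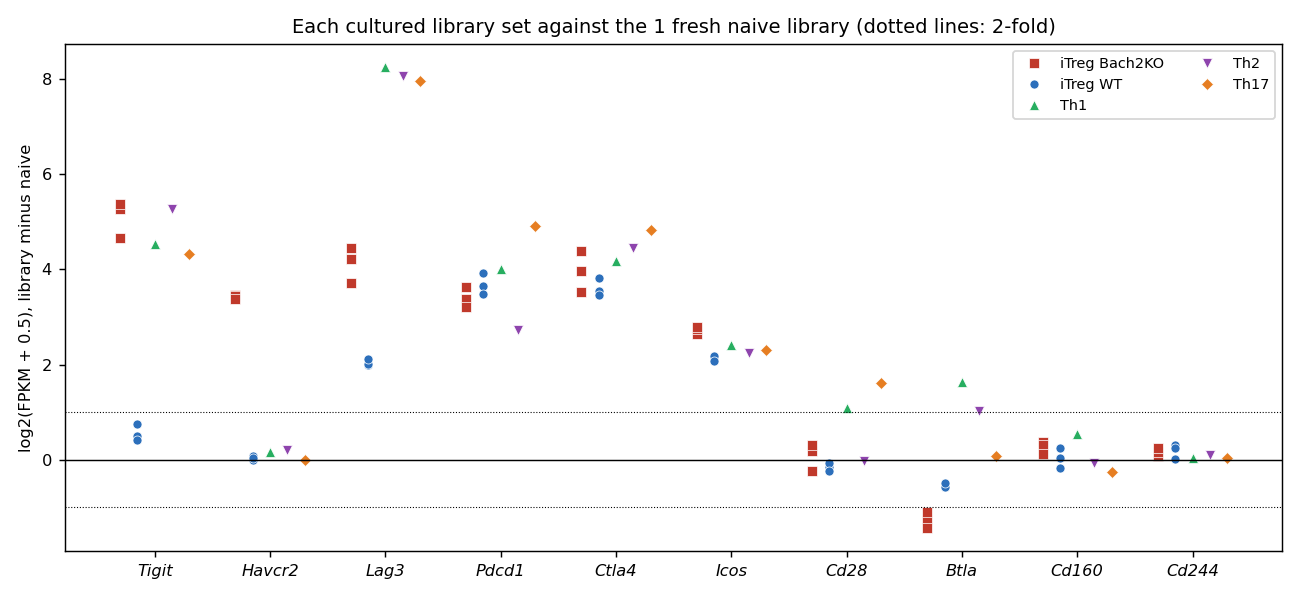
Difference in log2(FPKM + 0.5) of each cultured library from the 1 naive library for the 10 receptor genes, with 3 symbols each for Bach2KO and WT iTreg and 1 each for Th1, Th2 and Th17. Dotted lines mark 2-fold. Lag3 shows the widest gap between helper cultures (7.95 to 8.25) and WT iTreg (2.04), and Btla is below 0 in both iTreg groups.

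Across the 10 libraries the patterns of the receptors differed among themselves. The highest Pearson correlations of log2(FPKM + 0.5) between receptors were those of Ctla4 with Icos (0.91), Pdcd1 with Ctla4 (0.88) and Pdcd1 with Icos (0.82), and the lowest was that of Havcr2 with Btla (-0.67). Among 9220 other loci that reached 5 FPKM, those most like Tigit were Smc2 (r = 0.995), a condensin subunit, Fads2 (0.994) and Sass6 (0.994). Most like Havcr2 were Adam8 (0.991), Eomes (0.989), a T-box transcription factor, and Cd36 (0.988). Lag3 was most like Cep170 (0.988), Ier5l (0.986) and Slc35a3 (0.984), and Icos most like Aph1a (0.988), Acta1 (0.987) and AY074887 (0.986). Cd28 was most like Il21 (0.974) and Socs3 (0.973), a cytokine and an inhibitor of cytokine signalling. Btla was most like Hectd2 (0.970), Pdcd1 like Tmem184b (0.979) and Ctla4 like 1700020I14Rik (0.982). These are descriptions over libraries of which 6 share the iTreg culture. The 1 naive library was the lowest for Ctla4 (10.2 FPKM), Icos (10.6 FPKM) and Pdcd1 (0.997 FPKM). Havcr2 was at or near 0 in every library outside Bach2KO. How far these correlations rest on such single groups was not tested.

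The ligands and counter-receptors of these molecules were read in the same comparison. Of 17 listed genes 14 were tested, 6 were called higher and 2 lower, and 6 missed the threshold, while 41.0% of all tested loci were called higher and 33.6% lower. The median log2 difference was 0.34, against 0.07 over all loci. Cd80, named after its values were seen, is among the genes called higher and in this median. It averaged 1.09 FPKM in Bach2KO and 0.385 FPKM in WT iTreg and passed the filter on low values through Bach2KO alone. Its direction was thus fixed by that filter. The count called lower was 4 without WT iTreg replicate 2, and 1 without WT iTreg replicate 3 or without Bach2KO replicate 1. Tnfrsf14, which encodes HVEM, the partner of BTLA and CD160, averaged 35.4 ± 1.41 FPKM in Bach2KO and 87.6 ± 3.11 FPKM in WT iTreg (log2 difference -1.30, adjusted p = 4.6e-06). Btla was lower in the same cells. Pdcd1lg2, which encodes the PD-1 ligand PD-L2, averaged 4.79 ± 0.419 FPKM in Bach2KO and 0.670 ± 0.123 FPKM in WT iTreg (log2 difference 2.18, adjusted p = 1.4e-05). Cd48, the partner of CD244, averaged 91.3 ± 2.88 FPKM in Bach2KO and 68.5 ± 0.480 FPKM in WT iTreg (0.41, adjusted p = 0.00015), and Ceacam1, named as a partner of TIM-3, fell by 0.52 on the log2 scale (adjusted p = 0.017).

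Cd274, Lgals9 and Pvr are named after their values were seen. Cd274, which encodes PD-L1, averaged 27.1 ± 5.63 FPKM in Bach2KO and 8.66 ± 1.32 FPKM in WT iTreg (log2 difference 1.58, adjusted p = 0.00035). Lgals9, the galectin that binds TIM-3, averaged 108 ± 2.38 FPKM in Bach2KO and 88.5 ± 3.18 FPKM in WT iTreg (0.28, adjusted p = 0.0012). Pvr, the main ligand of TIGIT, was at 9.54 ± 1.54 FPKM in Bach2KO and 8.36 ± 0.569 FPKM in WT iTreg and was not called (0.17, adjusted p = 0.24). The class II genes bound by LAG-3 were uneven: H2-Aa was at 17.4, 10.4 and 16.8 FPKM in Bach2KO and at 49.7, 5.67 and 22.5 FPKM in WT iTreg libraries.

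Of 15 related receptors 13 were tested, 3 were called higher and 7 lower, and 3 missed the threshold, beside 41.0% higher and 33.6% lower over all loci. Under the alternatives tried, between 5 and 9 were called lower. The median log2 difference was -0.35. The inhibitory receptor VISTA, listed as 4632428N05Rik, averaged 44.3 ± 2.15 FPKM in Bach2KO and 68.6 ± 1.24 FPKM in WT iTreg (log2 difference -0.63, adjusted p = 6.2e-05), and the SLAM-family receptor Cd84 fell by 0.81 (adjusted p = 0.00012). Called higher were the adhesion receptor Cd2 (0.59, adjusted p = 9.8e-05), the inhibitory collagen receptor Lair1 (1.49, adjusted p = 0.00014) and Slamf7 (1.92, adjusted p = 0.00027). Slamf7 averaged 3.75 ± 0.123 FPKM in Bach2KO and 0.654 ± 0.298 FPKM in WT iTreg. Cd226 and Cd96, named after their values were seen as the receptors that share CD155 with TIGIT, were both lower in Bach2KO, at log2 differences of -0.40 for Cd226 (adjusted p = 0.044) and -0.49 for Cd96 (adjusted p = 0.00045).

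All 20 signalling partners were tested, 10 were called higher and 8 lower, and 2 missed the threshold, beside 41.0% higher and 33.6% lower over all loci. Their median log2 difference was 0.03. Ptpn6, which encodes the phosphatase SHP-1 recruited by several inhibitory receptors, averaged 156 ± 6.76 FPKM in Bach2KO and 68.5 ± 3.78 FPKM in WT iTreg (log2 difference 1.18, adjusted p = 1.2e-05). Grap2, the adaptor GADS that binds CD28, averaged 70.2 ± 5.42 FPKM in Bach2KO and 174 ± 5.83 FPKM in WT iTreg (-1.30, adjusted p = 1.3e-05). Ap2m1, the adaptor subunit that takes CTLA-4 into endocytic vesicles, rose by 0.67 (adjusted p = 2.7e-05). The kinase Lck (-0.55, adjusted p = 4.9e-05) and the PI3-kinase regulatory subunit Pik3r1 (-0.85, adjusted p = 5.9e-05) were lower in Bach2KO.

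**Figure D4:**
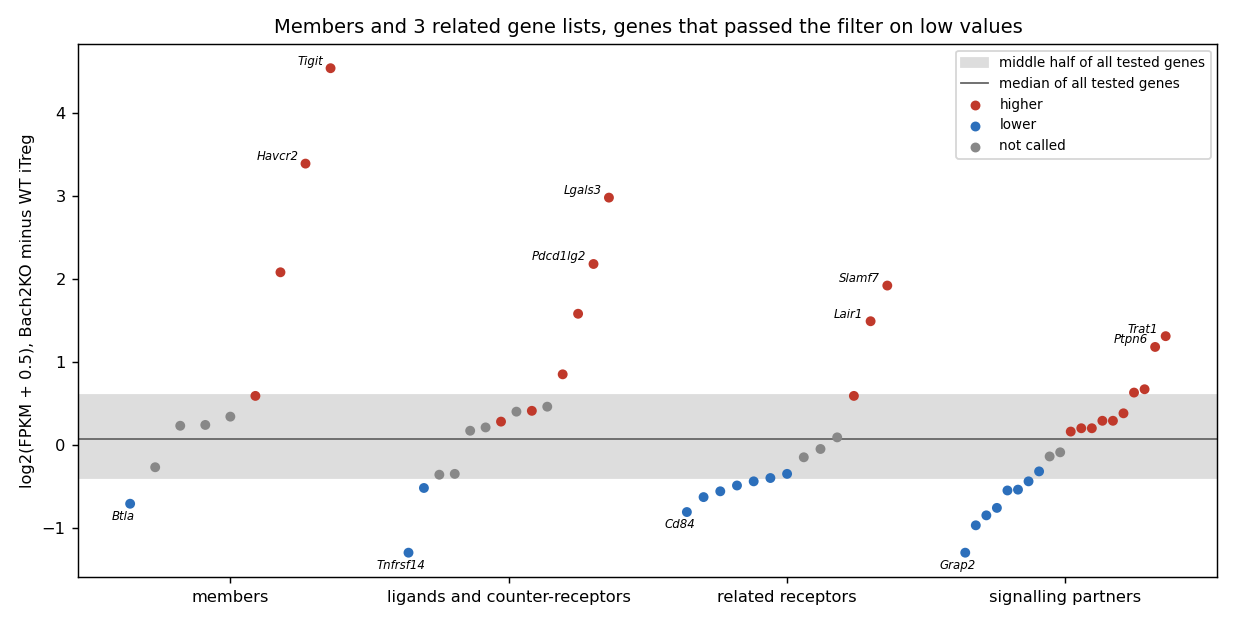
Difference in log2(FPKM + 0.5), Bach2KO minus WT iTreg, for the genes of 4 lists that passed the filter on low values, in order of size within each list. The grey band holds the middle of all tested loci around their median of 0.07. Tigit and Havcr2 lie highest among the receptors, and Tnfrsf14 and Grap2 lowest in their lists.

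Bach2 binding in WT iTreg cells was read from 22494 peaks in 1 ChIP library, so it carries no replicate error. The score of a peak is 10 times the negative log10 of its p-value as the authors' peak caller gave it. All 10 receptor loci had at least 1 peak within 50 kb, against 64.5% of all 23700 loci and 84.5% of the 11194 loci with at least 0.5 FPKM in WT iTreg. Together they had 76 different peaks, 7 of which lay near both Ctla4 and Icos, which are neighbours on chromosome 1. The median was 6.5 peaks per receptor locus, 1 over all loci and 2 over loci with at least 0.5 FPKM in WT iTreg. Icos had 20, Ctla4 17, Cd28 10, Tigit 8, Havcr2 7, Lag3 and Pdcd1 6 each, Cd160 4, Cd244 3 and Btla 2. Around the limit of the window, the outermost Icos peak (score 560) lay at 49.7 kb and was counted, while a peak of Cd160 at 50.1 kb (score 52.8) and one of Havcr2 at 50.6 kb (score 134) were not.

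A peak lay over the annotated start of 5 of the 10 loci, Tigit, Havcr2, Lag3, Cd28 and Btla, a count made after the values were seen. This held for 7.47% of 22165 loci with a known strand and for 13.7% of 10909 such loci with at least 0.5 FPKM in WT iTreg. Of these 5 genes, 4 differed between genotypes, Tigit, Havcr2 and Lag3 upward and Btla downward, while Cd28 was not called; 74.7% of all tested loci were called, so the count is near the general rate. Icos, the fifth gene called, had its closest peak 2606 bases upstream of its start.

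The highest peak scores among the 10 loci were at Havcr2 and Tigit, a ranking made after the values were seen. Ctla4 at 1255 and Icos at 1074 came next. At Tigit the start peak had its summit 309 bases upstream, 148 tags, a fold enrichment of 60.5 over background and a score of 1007, and 3.59% of all peaks scored higher. The strongest Tigit peak, 31.8 kb upstream, had 162 tags, a fold of 75.3 and a score of 1726 (1.08% scored higher). At Havcr2 the start peak, 213 bases upstream, had 99 tags, a fold of 50.3 and a score of 743 (5.91% scored higher). The strongest peak of any receptor lay in an intron of Havcr2, 19480 bases into the gene, with 231 tags, a fold of 81.8 and a score of 1803 (0.907% scored higher).

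Lag3 differed from these in its binding. Its start peak, 70 bases upstream, had 30 tags, a fold of 7.36 and a score of 84.5, and 60.7% of all peaks scored higher. The best of its 6 peaks scored 141. The start peak of Btla, 562 bases upstream, scored 284 with 83 tags, and that of Cd28, 61 bases upstream, scored 839 with 128 tags. By a second gene annotation (GENCODE) the Cd28 summit lay in an intron of Cd28.

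Among the receptors not called, Ctla4 had its best peak 33.5 kb upstream with a score of 1255, and its closest upstream peak at 10.2 kb scored 492. A second gene annotation (GENCODE) placed this closest upstream peak in an intron of Ctla4. Pdcd1 had its best peak 17060 bases downstream of its start, beyond the gene, with a score of 757, and one 3606 bases upstream with a score of 431. The 4 peaks counted for Cd160 and the 3 for Cd244 all lay beyond the 3' end of the gene. How peak scores go with RNA differences was not tested. Of the 76 peaks, 14 scored at least 500, or 18.4%, against 10.2% of all peaks.

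**Figure D5:**
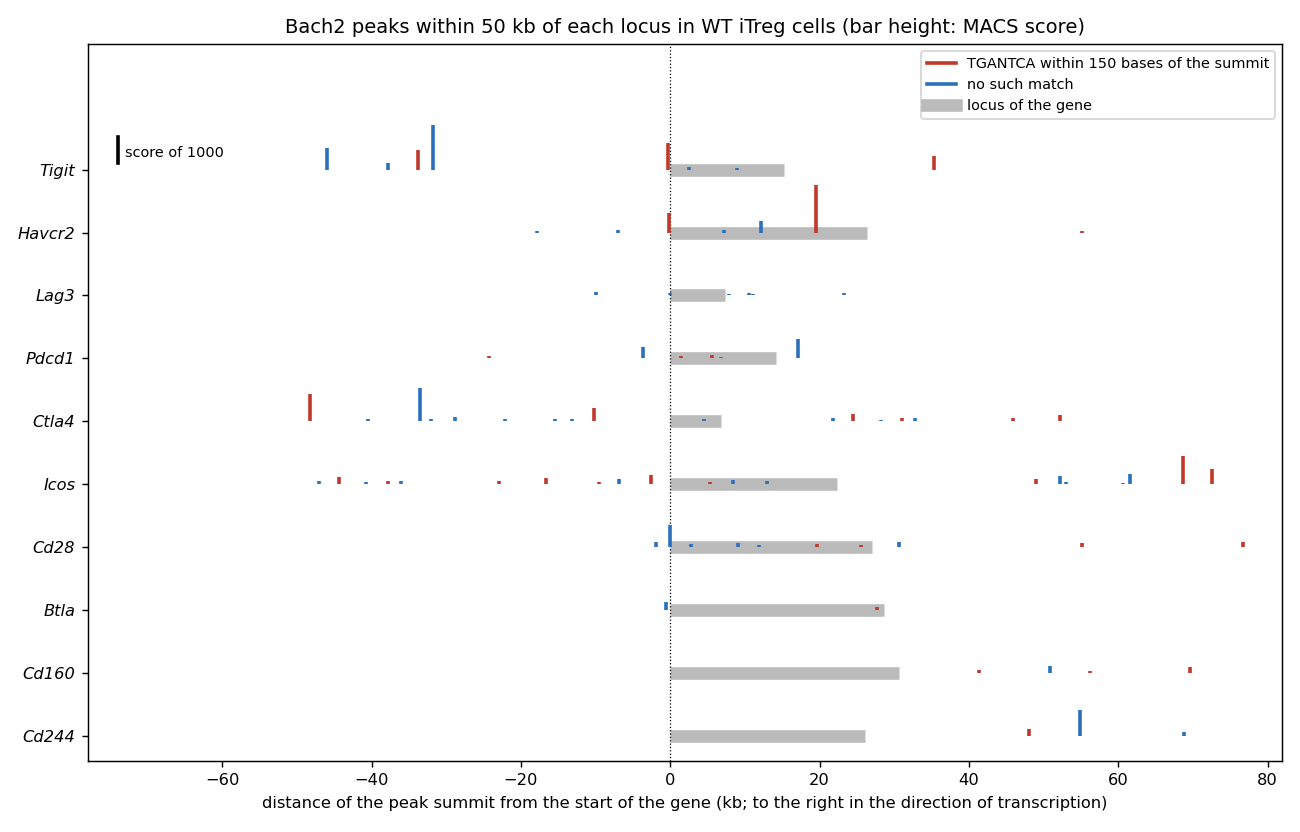
Summits of deposited Bach2 peaks within 50 kb of each receptor locus, as distance in kb from the start of the gene in the direction of transcription. Bar height is the MACS score, red bars hold TGANTCA within 150 bases of the summit, and grey boxes are the loci. Tall bars stand at and upstream of the start of Tigit and at the start and in the body of Havcr2, and all 6 bars of Lag3 are short.

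TGANTCA on either strand lay within 150 bases of the summit in 30 of the 76 peaks, or 39.5%. It lay there in 46.0% of all peaks and in 8.69% of windows of the same length placed 10 kb away. The same letters directly preceded by TGC, as in the Maf recognition element, were found on either strand in 6 of the 76 (7.89%), in 10.8% of all peaks and in 0.453% of the windows 10 kb away. None of the 6 Lag3 peaks held TGANTCA in this window, against 3 of 8 at Tigit, 3 of 7 at Havcr2 and 10 of 20 at Icos.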

How the data were processed

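The authors mapped unique 50-base reads to mm9 with TopHat and computed FPKM with Cufflinks, per the labels' protocols and the file headers, so values are scaled to transcript length and library size. Peaks were called with MACS 1.4.0beta from 8992019 ChIP tags and 9999999 input tags at a p-value cutoff of 1e-05, per the file headers. Bowtie is named in the submitters' processing notes, without its version. The deposited tag count per peak is not normalized, the deposited score is 10 times −log10 of the p-value, and the fold enrichment (a ratio) and FDR in percent are the authors' MACS values.

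From these, log2(FPKM + 0.5) was fitted with limma 3.58.1 (R 4.3.3; lmFit, eBayes with trend) on 3 Bach2KO and 3 WT iTreg libraries, two-sided, over 11473 loci that averaged 0.5 FPKM or more, with Benjamini-Hochberg adjustment at 0.05. The fit was tested on simulated data. Depth was estimated from the deposited confidence bounds, and these and the implied reads cover counting error only. Peaks were joined to loci by their nearest edge within 50 kb, and sequences were read from the mm9 reference with pysam 0.24.0. The genes and lists were chosen with earlier results of these data known. From each list, the 3 called genes of smallest adjusted p and up to 3 called against the list's majority were named, and other names are marked. For likeness, the 3 loci of highest Pearson correlation were taken per receptor. No 2 iTreg libraries of the same genotype were copies of each other, with at most 0.0192% of the loci compared at identical values. A marker gene and some sequences are not reported here.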

Additional observations from a re-analysis of the deposited data

Results flagged for a closer look

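Cd28 and Btla moved in opposite directions from naive cells in some helper cultures and in WT iTreg cells, on the log2(FPKM + 0.5) scale. Cd28 was at 1.09 in Th1 and 1.60 in Th17 relative to naive, and at -0.14 in WT iTreg, where all 3 libraries were below the naive value. Btla was at 1.62 in Th1, 1.02 in Th2 and 0.07 in Th17 relative to naive, and at -0.54 in WT iTreg, again below naive in all 3 libraries. The deposited bounds of Btla overlapped between Th17 and naive. These differences between cultures were not tested, since the helper and naive groups have 1 library each.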

How the results depend on the processing

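The counts and named differences were recomputed under other pseudocounts, filters, scalings and variance settings, without each replicate in turn, and with other peak windows and motifs. Tigit, Havcr2, Lag3, Icos and Btla kept their direction and their call throughout. Under quantile normalization, 2 receptors were called lower, Pdcd1 (-0.41, adjusted p = 0.032) beside Btla, 6 signalling partners were called higher, and Cd28 turned to -0.028 (adjusted p = 0.88); the cause was not tested. With a mean of at least 1 FPKM required, 1 ligand was called lower, since fewer genes were tested; Cd160 then gave no value. Leaving out 1 replicate at a time gave 1 to 2 receptors and 1 to 4 ligands called lower, and 4 to 6 receptors called higher, the highest receptor counts without Bach2KO replicate 2. Within 10 kb of a receptor there were 36 peaks, and 6 peaks held TGC directly before the motif. Same-numbered replicates did not deviate together (correlations of -0.04, -0.04 and 0.01), and a fit with the replicate block called 4346 loci higher and 3540 lower, with 4 receptors higher and 1 lower. Leaving out loci with a failed estimate, chosen after seeing the data, gave 4682 higher and 3828 lower. Depth limits what can be said of genes near 0 FPKM: Cd244 was too low to be tested, and the Havcr2 difference ranged from 2.54 to 5.47 with the pseudocount.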
